A study of Homo sapiens and Mus musculus with 12 samples.

Results

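The genes described here encode the proteins of the cytosolic ribosome, read in RNA-seq libraries of human and mouse cortical organoids, which are stem-cell aggregates grown into tissue like the early embryonic cortex. Human members were the genes whose symbol names a large-subunit (RPL) or small-subunit (RPS) protein, the stalk genes RPLP0 to RPLP2, RPSA, RPS27L and the paralogs RPL22L1, RPL26L1, RPL36AL, RPL39L, RPL3L and RPL7L1. Mouse members were the genes whose description begins with the name of a ribosomal protein, without pseudogenes and kinases. This gave 84 human genes of 60675 and 92 mouse genes of 47729, or 176 of 108404 in all. In human, 83 members passed the filter on low counts. RPL3L, whose protein replaces RPL3 in heart and skeletal muscle, did not: it had 1, 2 and 0 counts in KO libraries and 0, 1 and 0 in WT libraries. In mouse, 91 members passed. The mouse rule also took 9 genes named as retrogenes, copies or binding partners, among them ribosomal protein S19 binding protein 1, which is not itself a ribosomal protein, and 8 of these 9 passed the filter.

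Each ribosome carries a single copy of almost every one of these proteins, and their genes are expressed together at a high level in dividing cells. Their mRNAs typically begin with a C followed by a run of pyrimidines, the terminal oligopyrimidine (TOP) tract, through which the growth-regulating kinase mTOR and the binding protein LARP1 control their translation and stability. In the embryonic forebrain, cycling progenitors are known for high ribosome production, and mutations in several of these genes cause ribosomopathies such as Diamond-Blackfan anaemia.

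Human organoids were made from H9 embryonic stem cells grown on mouse feeder cells, treated during patterning with SB431542, Dorsomorphin, IWR-1-Endo and Cyclopamine, and harvested at week 4 (day 28). They were labelled NOTCH2NL KO (line code H9_KO_E5del42) or WT (line code H9_WT_E2del19). NOTCH2NL denotes partial duplicates of the Notch receptor gene NOTCH2 that occur in humans. The mouse organoids, from the embryonic stem cell line 46C, were harvested after 6 days. They were stable lines that carried the human NOTCH2NL-Sh_T197I form (N2NL, line code 46C_N2NL) or an empty vector (EV, line code 46C_EV), and the vector's promoter is not given in these sources. Each of the 4 groups had 3 libraries, each from a pool of 5 to 10 organoids in human and 16 in mouse. Each group had 1 line code, so genotype or vector and cell line cannot be told apart. Nothing in the labels states that pools came from separate cultures, so the p-values measure the spread between pools, which may be technical.

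Libraries held 15381409 to 16382938 counts in human and 16781742 to 20960391 in mouse. NOTCH2NL (ENSG00000264343) had 0 counts in all 3 KO libraries and 4, 5 and 3 in the WT libraries, too few to be tested. The 4 forebrain markers LHX2, PAX6, SIX3 and EMX2 were detected in every library and summed to 432 to 726 CPM (counts per 1000000, on a common library size) in KO, against 374 to 779 in WT. Of these, SIX3 was called higher in KO, at 31.2 ± 6.11 CPM in KO and 7.64 ± 1.43 CPM in WT (adjusted p = 0.000310). In mouse the 4 markers summed to 383 to 404 CPM in N2NL, against 310 to 322 CPM in EV. Levels throughout are CPM scaled by TMM factors, and the ± of a mean is the SD over 3 libraries. A gene is called higher or lower where edgeR's quasi-likelihood test gave a Benjamini-Hochberg adjusted p under 0.05 over all genes tested.

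The start of the mRNA is shown for 12 human members because the TOP tract is the feature these mRNAs are known for. Each window holds 10 bases before and 20 bases from the start annotated by RefSeq (GRCh38.p14), so the annotated start is base 11, and capitals mark the bases inside the window of the longest run of C and T that begins with C. The run of RPL26L1 begins before its window. The first 6 belong to genes that were lower in KO organoids, and the other 6 to genes that did not pass the test. These 12 do not represent all members in how tract and fold go together.
RPL18: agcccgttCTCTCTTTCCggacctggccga
RPL35: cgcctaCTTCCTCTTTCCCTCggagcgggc
RPL29: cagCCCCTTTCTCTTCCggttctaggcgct
RPS27: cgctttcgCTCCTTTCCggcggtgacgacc
RPS19: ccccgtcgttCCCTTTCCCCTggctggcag
RPL22L1: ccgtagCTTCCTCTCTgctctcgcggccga
RPL22: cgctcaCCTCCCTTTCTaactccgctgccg
RPS6: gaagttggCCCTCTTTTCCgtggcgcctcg
RPS27L: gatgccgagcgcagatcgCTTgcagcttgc
RPL26L1: TCCaggggtcggcgaacgaaacgcggagct
RPL7L1: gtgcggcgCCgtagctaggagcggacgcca
RPS26: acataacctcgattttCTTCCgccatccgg
The windows lie at chr19:48619159-48619188 (RPL18, minus strand), chr9:124861938-124861967 (RPL35, minus), chr3:51995876-51995905 (RPL29, minus), chr1:153990752-153990781 (RPS27, plus), chr19:41860245-41860274 (RPS19, plus) and chr3:170870176-170870205 (RPL22L1, minus). Those of the other 6 lie at chr1:6199576-6199605 (RPL22, minus), chr9:19380217-19380246 (RPS6, minus), chr15:63157458-63157487 (RPS27L, minus), chr5:172958719-172958748 (RPL26L1, plus), chr6:42879606-42879635 (RPL7L1, plus) and chr12:56041908-56041937 (RPS26, plus).

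The tract is visible in the first 8 windows and short in the last 4, of which 3 belong to paralogs. RefSeq start windows were matched for 67 of the 84 human members. A C at the annotated start followed by at least 4 bases that are each C or T, on the gene's own strand, stood in 47 of these 67 (70.15%), against 1404 of 27305 genes with a window (5.142%). Of these 47 members, 11 were called lower in KO organoids, as were 4 of the 20 matched members without it. Among the 17 members without a window were RPS2, RPS15A, RPS20, RPL3L, RPL5, RPL7, RPL8, RPL23, RPL23A, RPL30, RPL37 and RPL39L.

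The first comparison asks how ribosomal protein mRNAs stand in organoids that lack NOTCH2NL. They were lower in KO organoids: 20 of the 83 tested members were called lower and 0 higher, where 3.19% of all 16956 tested genes were called lower and 2.31% higher. The fold lay below 0 for 80 of the 83 (96.4%), against 50.7% of all tested genes, and 52 had a fold below 0 with an unadjusted p under 0.05 (62.7%), against 12.1% of all tested genes. The median log2 fold change was -0.27, a level 16.8% lower, beside a median of -0.0047 over all tested genes. In 53 of the 83 all 3 KO libraries lay below all 3 WT libraries, and in 0 of the 83 they all lay above, against 14.8% and 14.1% of all tested genes.

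Member genes took 7.73%, 7.83% and 7.21% of the counts in KO 1 to 3, against 9.11%, 8.42% and 9.58% in WT 1 to 3. Every KO library lay below every WT library, on average at 7.59% ± 0.332 in KO and 9.04% ± 0.585 in WT (SD, n = 3 each). Relative to the mean of the WT libraries, the median member stood at -0.24, -0.25 and -0.31 on the log2 scale in KO 1 to 3 and at 0.0062, -0.12 and 0.10 in WT 1 to 3. KO 3 was the lowest library and WT 3 the highest, and WT 2 stood below the WT mean for 80 of the 83 members. In these pools, fewer cells rich in ribosomal protein mRNA and less of that mRNA per cell cannot be told apart.

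**Figure D1:**
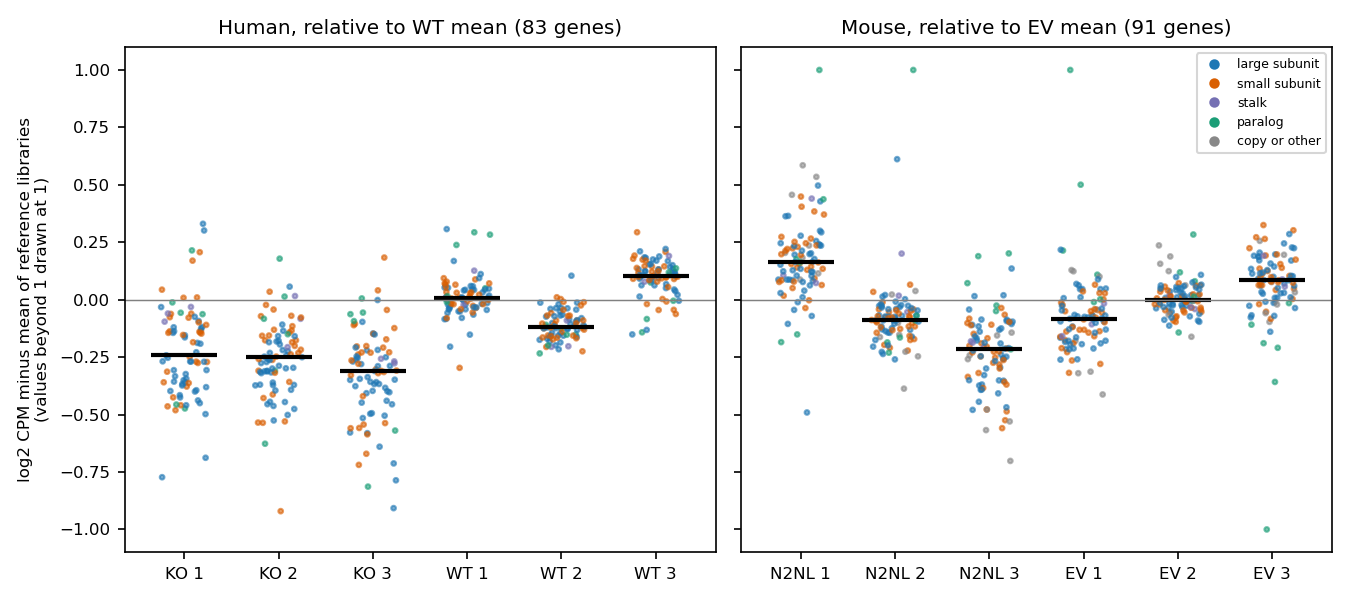
Each point is 1 tested ribosomal protein gene in 1 library, as log2 CPM minus the mean of the WT (left) or EV (right) libraries, with colours for the subunit and a black bar at the median of the library. The KO medians lie between -0.31 and -0.24, below all WT medians, whereas the N2NL medians (-0.22 to 0.16) span the EV medians (-0.083 to 0.084).

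The count of members called lower depended on which libraries entered the fit. It was 1 without KO 1, 5 without KO 2, 4 without KO 3, 19 without WT 1, 18 without WT 2 and 2 without WT 3, while the median fold stayed between -0.31 and -0.20. Of the 20, RPS15 was called in 6 of these 6 fits and RPL18 in 4. The authors' deposited table holds 29 members as lower and 0 as higher at the same threshold, against 4.14% and 3.23% of the genes with an adjusted p there, and the 29 include all 20.

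Large-subunit genes were 43 of the 83 tested members, 43 of the 80 with a fold below 0 and 15 of the 20 called lower. Of these genes 0 were called higher, and their median log2 fold change was -0.31. Over all tested genes, 3.19% were called lower and 2.31% higher. RPL35 (ENSG00000136942; chromosome 9, 124857880 to 124861981, minus strand), which sits at the exit of the tunnel through which the new protein leaves, had 514, 561 and 421 CPM in KO and 746, 648 and 789 CPM in WT. All KO libraries were lower, KO 3 the most, and the log2 fold change was -0.55 ± 0.12 (SE; adjusted p = 0.0279). RPL29 (ENSG00000162244; chromosome 3, 51993522 to 51995942, minus strand) had 606, 609 and 532 CPM in KO and 784, 775 and 935 CPM in WT. WT 3 stood above the other WT libraries, the groups did not overlap, and the log2 fold change was -0.51 ± 0.10 (adjusted p = 0.0191).

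RPL18 (ENSG00000063177; chromosome 19, 48615328 to 48619536, minus strand) had 996, 945 and 895 CPM in KO and 1262, 1326 and 1432 CPM in WT. No KO library reached the level of any WT library, and the log2 fold change was -0.50 ± 0.09 (adjusted p = 0.0117). An overlapping gene covers 26.4% of its main transcript. RPL8 (ENSG00000161016), which lies close to the catalytic centre where peptide bonds form, had 1073, 1089 and 944 CPM in KO and 1410, 1254 and 1586 CPM in WT, without overlap, a log2 fold change of -0.45 ± 0.11 (adjusted p = 0.0356).

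RPL3, another large-subunit protein near the catalytic centre, was just past the threshold at 2612 ± 138 CPM in KO and 3373 ± 287 CPM in WT, with a log2 fold change of -0.37 ± 0.09 (adjusted p = 0.0488). Its call was lost with RLE factors, with a mean of at least 50 counts required and in the non-robust fit (adjusted p = 0.0525 to 0.0615). The other large-subunit genes called lower were RPL12, RPL15, RPL27, RPL30, RPL34, RPL36, RPL37, RPL37A and RPL38, with log2 fold changes from -0.44 to -0.33. The 20 members called lower were 15 large-subunit genes, 4 small-subunit genes and 1 paralog, and their falls ran from 20.2% to 36.1%. In all 20 every KO library lay below every WT library, against 14.8% of all tested genes. The call rests on the same libraries and makes this likely, so it is no separate support.

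Among small-subunit genes, 4 of 31 were called lower and 0 higher, and the median log2 fold change was -0.21. RPS15 (ENSG00000115268; chromosome 19, 1438358 to 1440494, plus strand), whose tail reaches toward the decoding site, had 600, 571 and 503 CPM in KO and 866, 795 and 823 CPM in WT. The groups lay far apart, and the log2 fold change was -0.57 ± 0.09 (adjusted p = 0.00761). It kept its call without any 1 of the 6 libraries.

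RPS27 (ENSG00000177954; chromosome 1, 153990755 to 153992155, plus strand), a zinc-finger protein of the small subunit, had 636, 613 and 612 CPM in KO and 866, 797 and 1015 CPM in WT. The KO libraries were nearly equal, WT 3 was the highest, and the log2 fold change was -0.52 ± 0.10 (adjusted p = 0.0163).

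RPS19 (ENSG00000105372; chromosome 19, 41859918 to 41872926, plus strand), a protein of the small subunit's head whose gene is often mutated in Diamond-Blackfan anaemia, had 1091, 1054 and 945 CPM in KO and 1416, 1230 and 1638 CPM in WT. The groups did not overlap although WT varied widely, and the log2 fold change was -0.47 ± 0.11 (adjusted p = 0.0402). The call was lost in the non-robust fit (adjusted p = 0.0523) and with a trend on transcript length removed (adjusted p = 0.0528). RPS3, chosen after its values were seen, stood at the threshold without passing it, with a log2 fold change of -0.41 ± 0.11 and an adjusted p of 0.05003.

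RPS6, RPSA and RPS26 did not pass the test. RPS6, the ribosomal substrate of the S6 kinases below mTOR, had 2591, 2376 and 2250 CPM in KO and 2753, 2409 and 2974 CPM in WT. KO 1 stood above WT 2, so the groups overlapped, and the log2 fold change of -0.17 ± 0.10 did not pass the test (adjusted p = 0.346). RPSA, also known as the laminin receptor, had 1274, 1306 and 1251 CPM in KO and 1435, 1193 and 1421 CPM in WT, which overlapped (-0.08 ± 0.09, adjusted p = 0.657). RPS26, which lies at the mRNA exit, was the 1 small-subunit gene with a fold above 0, at 115, 117 and 129 CPM in KO and 114, 106 and 122 CPM in WT (0.08 ± 0.09, adjusted p = 0.653).

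The balance of the subunits can also be read inside each library, where scaling plays no part. Counts in large-subunit genes were 1.233, 1.268 and 1.282 times those in small-subunit genes in KO 1 to 3, against 1.311, 1.342 and 1.336 times in WT 1 to 3. Every KO library lay below every WT library. In mouse the same ratio was 1.258, 1.268 and 1.308 in N2NL and 1.291, 1.288 and 1.238 in EV, and the groups overlapped. These ratios rest on the same counts as the folds, and whether the subunits differed was not tested.

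**Figure D2:**
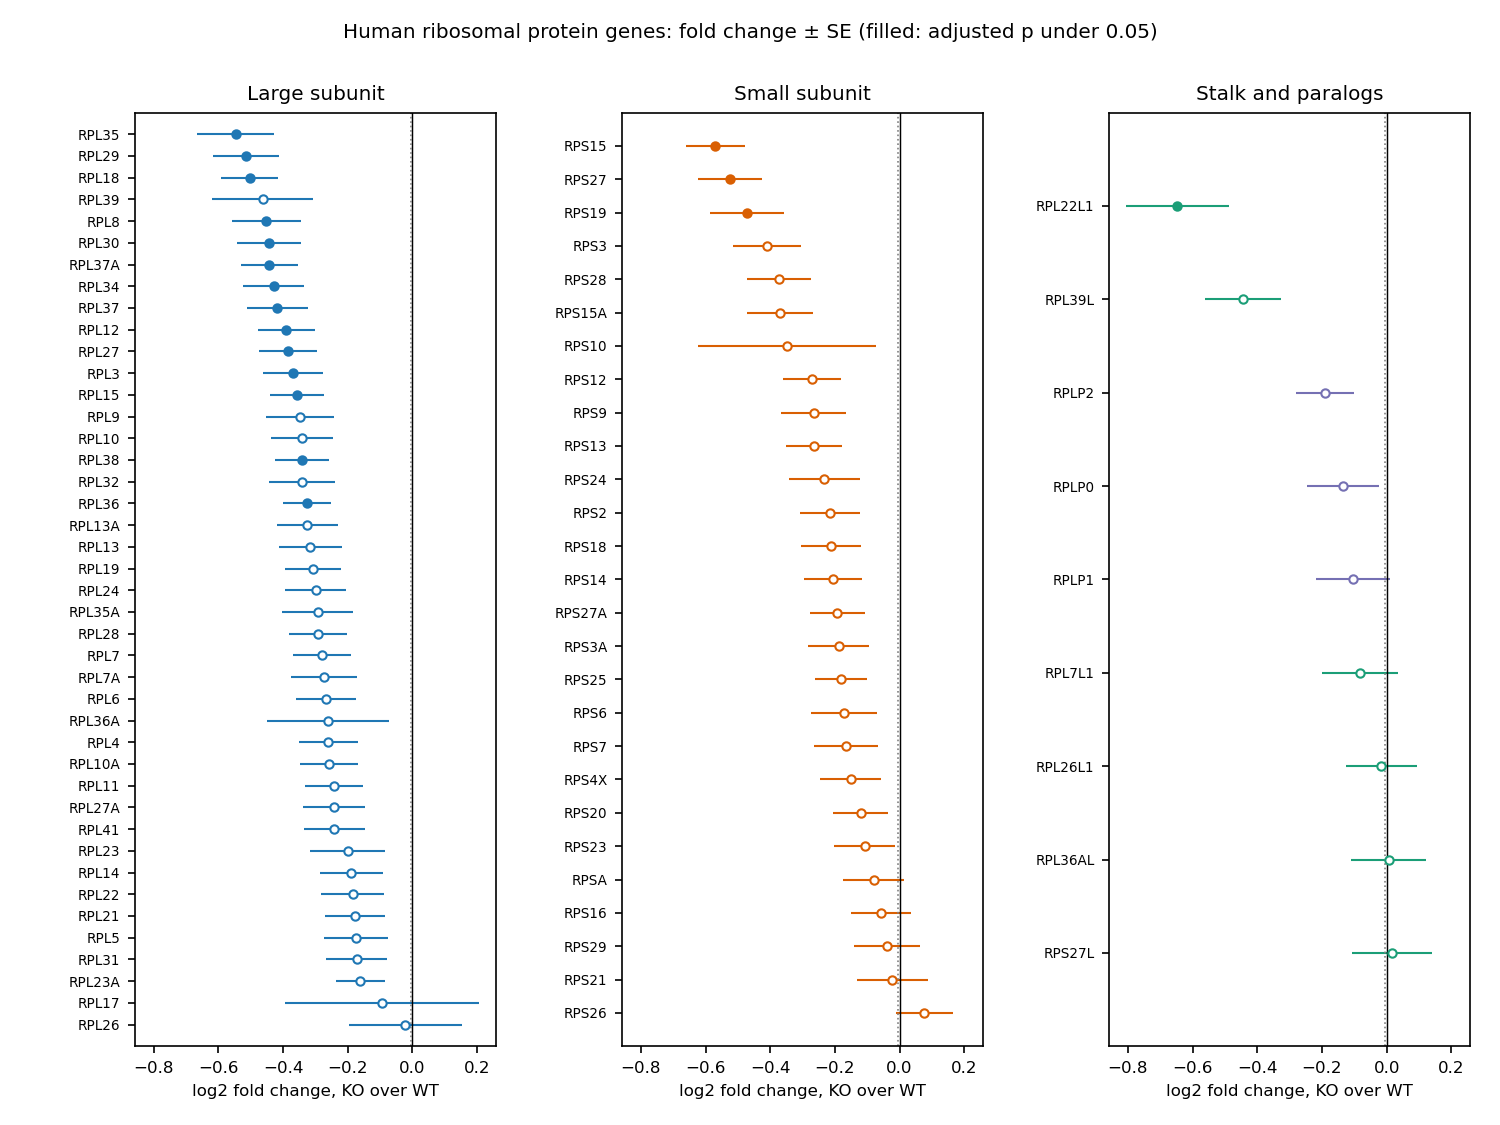
The log2 fold change of KO over WT with its SE is drawn for 78 of the 83 tested human members by subunit, with filled points for an adjusted p under 0.05, a solid line at 0 and a dotted line at the median of all tested genes. The large-subunit genes drawn lie below 0, from -0.55 for RPL35 to -0.02 for RPL26, and only RPS26, RPL36AL and RPS27L lie above it, though RPL26 stood at 0.0038 with library size alone and RPS27L at -0.00082 with a trend on exonic length removed.

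The stalk, where the acidic proteins RPLP1 and RPLP2 bind to RPLP0 and recruit elongation factors, had smaller folds than most members. RPLP0 had 2983, 2878 and 2517 CPM in KO and 3328, 2644 and 3220 CPM in WT, and RPLP1 had 991, 1045 and 865 CPM in KO and 1042, 898 and 1179 CPM in WT. Both overlapped between groups, with log2 fold changes of -0.13 ± 0.11 and -0.10 ± 0.12. RPLP2 had 858, 795 and 762 CPM in KO and 903, 861 and 992 CPM in WT, just without overlap, and a log2 fold change of -0.19 ± 0.09. None of the 3 passed the test (adjusted p = 0.510, 0.637 and 0.239), and whether the stalk differed from the other members was not tested.

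Of the 6 paralogs tested, 1 was called lower and 0 higher. RPL22L1 (ENSG00000163584; chromosome 3, 170864875 to 170870483, minus strand), a near relative of the RNA-binding protein RPL22 whose level the mouse Rpl22 protein is known to hold down, had 16.2, 14.5 and 12.8 CPM in KO and 27.5, 20.2 and 20.3 CPM in WT. All KO libraries were lower, WT 1 stood well above the other WT libraries, and the log2 fold change of -0.65 ± 0.16 was the largest of any member (adjusted p = 0.0445). Its call did not hold in any of the 6 fits that left out 1 library.

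The parent RPL22 had 269, 262 and 244 CPM in KO and 301, 257 and 322 CPM in WT, with KO 1 and KO 2 above WT 2 (-0.18 ± 0.10, adjusted p = 0.294). The log2 ratio of RPL22L1 to RPL22 within a library was -4.16 ± 0.0993 in KO and -3.70 ± 0.269 in WT (SD, n = 3 each). All 3 KO ratios lay below all 3 WT ratios. The two-sided exact permutation test over 3 and 3 libraries gave p = 0.1, the smallest it allows (adjusted p = 0.550 over 11 pairs of a paralog and its parent in the 2 species).

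RPS27L, a target of p53 in human cells, had 139, 159 and 131 CPM in KO and 165, 119 and 140 CPM in WT, fully overlapping, with a log2 fold change of 0.02 ± 0.12 (adjusted p = 0.955). The log2 ratio of RPS27L to RPS27 was -2.12 ± 0.149 in KO and -2.66 ± 0.245 in WT (SD, n = 3 each), higher in all 3 KO libraries, again with the smallest possible exact two-sided p of 0.1 (adjusted p = 0.550).

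RPL39L, a testis-enriched form of the exit-tunnel protein RPL39, had 21.99, 24.4 and 20.3 CPM in KO and 31.2, 27.7 and 31.8 CPM in WT. The groups did not overlap, but the log2 fold change of -0.44 ± 0.12 missed the threshold (adjusted p = 0.0567). It was called lower by DESeq2 (adjusted p = 0.0498), by edgeR without the filter on low counts (adjusted p = 0.0264) and in the authors' deposited table (adjusted p = 0.047). RPL39 itself had 51.8, 61.5 and 80.0 CPM in KO and 99.5, 86.3 and 80.9 CPM in WT, with KO 3 just under WT 3 (-0.46 ± 0.16, adjusted p = 0.123). Counts in annotated pseudogenes of RPL39 amounted to 30.01% of its own. With pseudogene counts added to each member, RPL39 was called lower (adjusted p = 0.0412), as it was without the filter on low counts (adjusted p = 0.000543). The fit without the filter called more genes throughout, 39 members and 2155 genes against 20 and 932 with it.

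The other 3 paralogs had folds near 0. RPL36AL (65.2 ± 8.77 CPM in KO and 64.9 ± 6.47 in WT), RPL26L1 (26.4 ± 0.765 in KO and 26.8 ± 2.14 in WT) and RPL7L1 (86.7 ± 0.822 in KO and 91.8 ± 16.6 in WT, SD, n = 3 each) had log2 fold changes of 0.0065, -0.02 and -0.08, with adjusted p of 0.983, 0.949 and 0.727. All 3 overlapped between groups. Of their parents, RPL7 had a log2 fold change of -0.28 ± 0.09 (adjusted p = 0.0994), RPL26 of -0.02 ± 0.17 (adjusted p = 0.957) and RPL36A of -0.26 ± 0.19 (adjusted p = 0.447). Overlapping genes cover 65.3% of the main transcript of RPL26 and 77.6% of that of RPL36A, so both levels are uncertain.

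**Figure D3:**
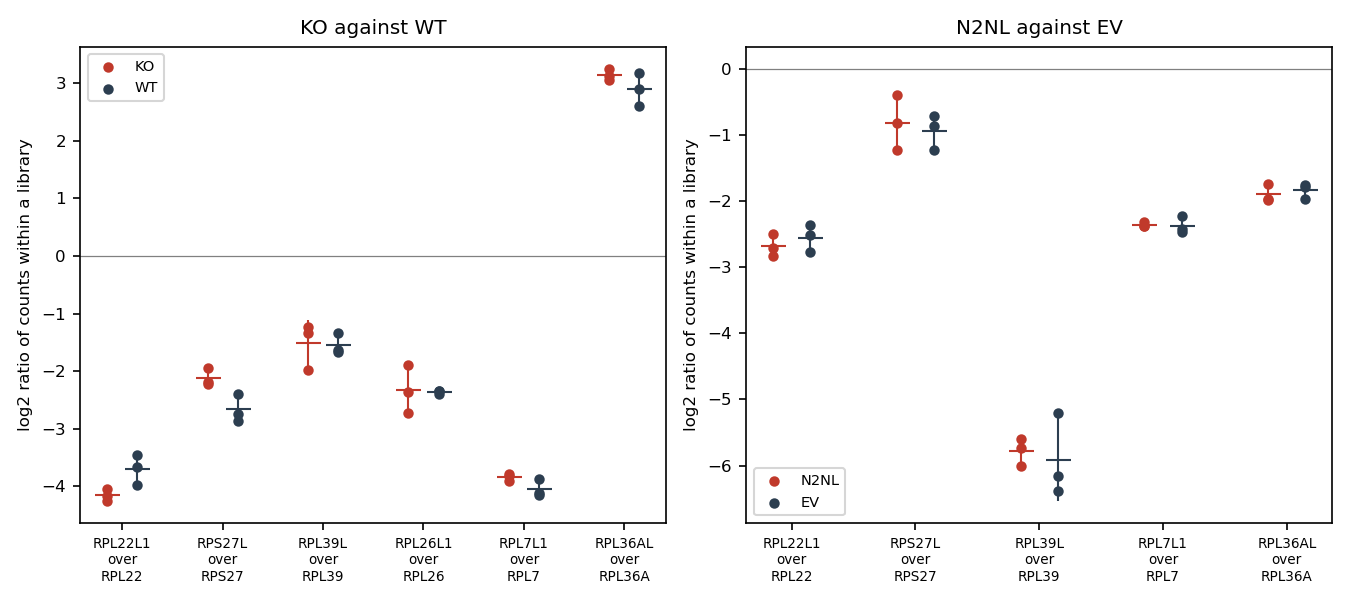
The log2 ratio of a paralog's counts to its parent's counts is drawn for each library with mean and SD, KO and WT on the left and N2NL and EV on the right. For RPL22L1 over RPL22 the KO points lie below the WT points, for RPS27L over RPS27 above them, and the mouse pairs overlap. RPL36AL lies above RPL36A in human and below it in mouse. The human level of RPL36A is uncertain, since an overlapping gene covers 77.6% of its main transcript.

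Levels per kilobase of transcript, taken from the median length of a gene's protein-coding transcripts in GENCODE 29, spanned a wide range among the tested members. The median was 1235 CPM per kilobase in KO and 1528 in WT. RPS18 (3269 in KO and 3784 in WT) and RPLP0 (3299 in KO and 3620 in WT) were among the 3 highest in WT. RPS18 had a log2 fold change of -0.21 ± 0.09, which did not pass the test (adjusted p = 0.211).

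Among the tested members, the lowest by length were RPL17 (6.28 CPM per kilobase in KO and 6.69 in WT), RPS10 (6.53 in KO and 8.33 in WT) and RPL36A (10.6 in KO and 12.7 in WT). These levels are uncertain. An overlapping gene, in each case one annotated as a read-through with its neighbour, covers 91.0%, 84.0% and 77.6% of their main transcripts, and reads shared by overlapping genes cannot be assigned with certainty. RPL17 had 91, 77 and 41 counts in KO and 63, 83 and 76 in WT, RPS10 had 69, 45 and 91 in KO and 68, 89 and 100 in WT, and RPL36A had 121, 110 and 117 in KO and 166, 128 and 118 in WT. All 3 overlapped between groups and had wide errors, from 0.19 to 0.30 on the log2 scale, against a median SE of 0.10 over the tested members.

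The folds of the members spread with an SD of 0.15 on the log2 scale. As descriptions across genes, which are not independent replicates and share the libraries, Spearman's rho of the log2 fold change was -0.28 with the WT level per length, 0.22 with transcript length (83 members each) and -0.16 with the longest pyrimidine run in the start window (67 members). Members have short transcripts, with a median length of 687 bases against 1721 over 16856 tested genes. With a trend of fold on transcript length removed, 16 members were called lower, all among the 20, and the median log2 fold change was -0.24.

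The presence of a tract at the annotated start did not divide the members by fold. The 47 members with it had a median log2 fold change of -0.26, with 11 called lower, and the 20 without it had a median of -0.26, with 4 called lower. RPS15 had no such tract at the annotated start and was among the genes that fell most. The 6 members whose window held no run of 5 or more (RPS29, RPL7L1, RPS27L, RPL26L1, RPS4X and RPL6) had a median of -0.06 and 0 calls, against -0.27 and 15 called lower in the other 61. The length of 5 was chosen after the values were seen, and the difference was not tested.

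**Figure D4:**
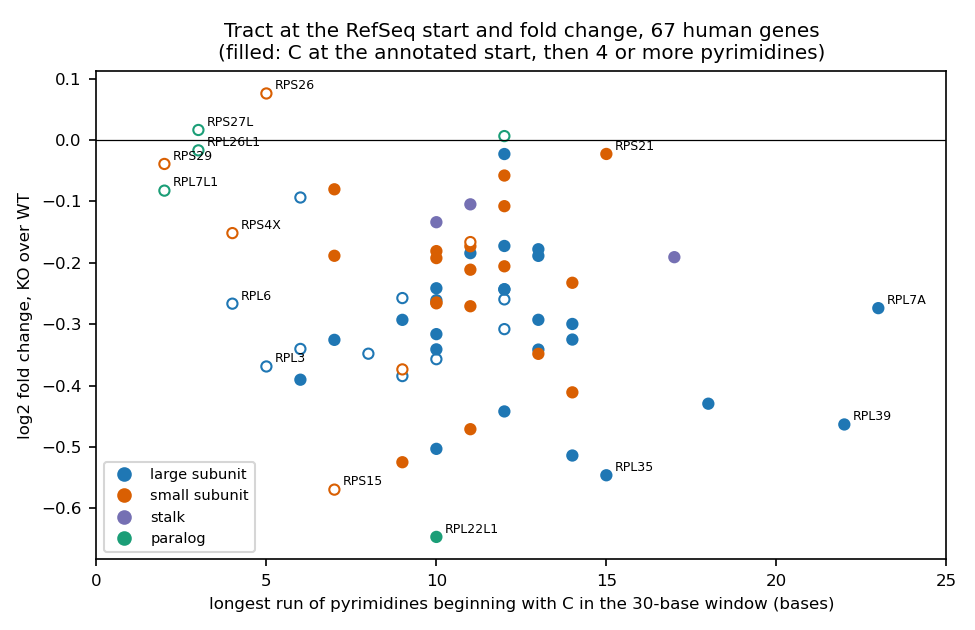
The log2 fold change of KO over WT is drawn against the longest run of pyrimidines beginning with C in the 30-base window around the RefSeq start, for 67 human members, with filled points where the annotated start is a C followed by at least 4 pyrimidines. Filled and open points overlap in fold over most of the range, and the 6 genes with the shortest runs lie between -0.27 and 0.02.

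Other genes linked to the ribosome did not all follow. The counts called in the lists that follow stand beside 3.19% lower and 2.31% higher over all tested genes. The ribosomal protein gene FAU had a log2 fold change of -0.33 ± 0.11 (adjusted p = 0.102), and the ribosome-bound scaffold RACK1 had -0.30 ± 0.11 (adjusted p = 0.125). Of 15 tested genes listed as further TOP mRNAs, which encode mostly translation factors, 1 was called lower and 0 higher with a median of -0.14. That gene was EEF1A2, the elongation factor 1A form of neurons and muscle, at 178 ± 14.5 CPM in KO and 291 ± 17.4 CPM in WT (-0.71 ± 0.09, adjusted p = 0.00225).

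Noncoding host genes of small nucleolar RNAs, which also carry TOP tracts, had 2 of 10 called lower and 0 higher, with all 10 folds below 0 and a median of -0.27. GAS5 stood at 277 ± 16.2 CPM in KO and 412 ± 30.8 CPM in WT, with a log2 fold change of -0.57 ± 0.09 (adjusted p = 0.00613). SNHG6 stood at 105 ± 15.8 CPM in KO and 159 ± 8.98 CPM in WT, a log2 fold change of -0.60 ± 0.11 (adjusted p = 0.0158).

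Ribosome assembly factors, which process ribosomal RNA and build subunits in the nucleolus, had 0 of 38 called lower and 1 higher, with a median of 0.08. The 1 was UBTF, a transcription factor of RNA polymerase I, at 252 ± 5.43 CPM in KO and 201 ± 3.02 CPM in WT (0.33 ± 0.07, adjusted p = 0.0303). Of 14 regulators of ribosomal protein mRNA, 1 was higher, the translational repressor EIF4EBP2 (283 CPM in KO and 224 CPM in WT, 0.34 ± 0.08, adjusted p = 0.0451). Mitochondrial ribosomal proteins, which serve a separate ribosome, had 0 of 76 called lower and 1 higher, with a median of 0.03. The 1 was MRPL15, with a log2 fold change of 0.41 ± 0.10 (adjusted p = 0.0484). With 2.31% of all tested genes called higher, the single calls in these 3 lists are not results about the lists.

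Other features moved with the groups. Mitochondrially encoded genes took 5.91% to 6.23% of counts in KO and 4.96% to 5.59% in WT. The 5 mitosis markers summed to 967 to 1129 CPM in KO and 574 to 896 CPM in WT, and 1 of them, CCNB1, was called higher. The 5 ventral telencephalon markers summed to 169 to 281 CPM in KO and 11.2 to 20.7 CPM in WT, with 4 called higher. Sums overlapped for 5 radial glia markers (792 to 1147 CPM in KO and 1005 to 1176 in WT), 6 neuron markers (2408 to 3518 in KO and 2547 to 3366 in WT, with TUBB3 and MAPT called lower), 6 mesenchyme markers (28.5 to 50.9 in KO and 34.3 to 46.8 in WT, with LUM called lower and PDGFRB higher) and 4 pluripotent cell markers (3.43 to 8.73 in KO and 5.17 to 14.4 in WT, POU5F1 and NANOG at 0 in KO). Their part in the lower ribosomal protein mRNA was not tested.

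The second comparison asks how the same genes stand in mouse organoids from lines that carried a human NOTCH2NL form. None was called in either direction among 91 tested members, where 0% of the 16682 tested genes were called lower and 0.012% higher. The smallest adjusted p was 0.780 by edgeR and 0.850 by DESeq2, and 0 members had an unadjusted p under 0.05 by either tool, against 7.45% of all tested genes by edgeR. The median log2 fold change was -0.04, beside -0.0058 over all tested genes, and 73 of the 91 folds lay below 0, against 51.7% of tested genes. In 1 member (RPL27A) all N2NL libraries lay below all EV libraries, and in 0 they lay above, against 5.31% and 7.39% of tested genes. The authors' deposited table has 0 members past the threshold in either direction, against 0.423% of genes lower and 0.735% higher, with a smallest adjusted p of 0.611.

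Member genes took 6.49%, 5.60% and 5.09% of counts in N2NL 1 to 3, against 5.52%, 5.95% and 6.29% in EV 1 to 3. The groups overlapped, and the N2NL libraries held both the highest and the lowest value. The members varied together from library to library: the median member stood at 0.16, -0.09 and -0.22 on the log2 scale in N2NL 1 to 3 and at -0.08, -0.0004 and 0.08 in EV 1 to 3, relative to the EV mean. Without N2NL 1 the median log2 fold change of the members was at its lowest among the fits that left out 1 library, which ran from -0.16 to 0.04.

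The share of reads aligned to several places was 26.8%, 29.2% and 30.1% in N2NL 1 to 3 and 33.7%, 29.2% and 26.6% in EV 1 to 3, so the libraries richest in ribosomal protein counts, N2NL 1 and EV 3, were those with the lowest share. Neuron markers summed to 547 to 591 CPM in N2NL and 630 to 781 CPM in EV, without overlap. The part of either in the members' values was not tested.

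None of the genes that fell in the human comparison was called in mouse. Mouse RPS15 had 1377, 1092 and 889 CPM in N2NL and 1094, 1153 and 1241 CPM in EV. N2NL 1 was the highest of all 6 libraries, the groups overlapped, and the log2 fold change was -0.05 ± 0.14 (adjusted p = 0.966). Mouse RPS27 had 412, 323 and 268 CPM in N2NL and 370, 355 and 396 CPM in EV. Here too N2NL held both the highest and the lowest library, with a log2 fold change of -0.16 ± 0.14 (adjusted p = 0.867). Mouse RPL22L1 had 104, 104 and 116 CPM in N2NL and 128, 125 and 104 CPM in EV, with a log2 fold change of -0.14 ± 0.09 (adjusted p = 0.784).

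The largest mouse folds by size were those of RPL3L, RPS29 and the gene described as ribosomal protein L10-like. RPL3L had 20, 16 and 6 counts in N2NL and 15, 8 and 2 in EV, with a log2 fold change of 0.88 ± 0.58 (adjusted p = 0.796). RPS29, a small zinc-binding protein of the small subunit, had 276, 226 and 180 CPM in N2NL and 249, 249 and 280 CPM in EV, which overlapped (-0.19 ± 0.14, adjusted p = 0.835). Ribosomal protein L10-like had 5.67, 3.98 and 3.55 CPM in N2NL and 4.28, 3.50 and 4.00 CPM in EV (0.17 ± 0.21, adjusted p = 0.904). Apart from RPL3L, all tested mouse members lay between -0.19 and 0.17.

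Of the stalk genes, RPLP0 and RPLP1 had log2 fold changes of -0.03 ± 0.09 and -0.05 ± 0.09 in mouse, and RPLP2 of 0.17 ± 0.16 (adjusted p = 0.973, 0.949 and 0.880). RPLP2 had 740, 627 and 479 CPM in N2NL and 488, 533 and 622 CPM in EV, and N2NL 1 was the highest library. Mouse RPS6 and RPSA had log2 fold changes of 0.03 ± 0.09 and -0.0065 ± 0.17 (adjusted p = 0.971 and 0.998). For the 5 mouse pairs of a paralog and its parent, the exact two-sided p ran from 0.5 to 1 and the difference in log2 ratio, N2NL minus EV, from -0.12 to 0.14.

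The 2 comparisons share no library, so their folds can be set side by side for the 82 members tested in both species. As a description across 82 genes, Pearson's r of the human and mouse folds was -0.02 and Spearman's rho 0.01. The mouse folds had an SD of 0.055 over large-subunit and 0.046 over small-subunit genes. Their median SE was 0.107, so these correlations cannot decide whether the folds of the 2 species are related. The 20 members lower in KO organoids had a mouse median of -0.04, from -0.16 to 0.07, and the other matched members a mouse median of -0.04. The human comparison sets loss of NOTCH2NL against WT, whereas the mouse comparison sets an added human NOTCH2NL form against an empty vector. The organoids also differ in species, age and vector, so no test of a difference between the comparisons was made.

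**Figure D5:**
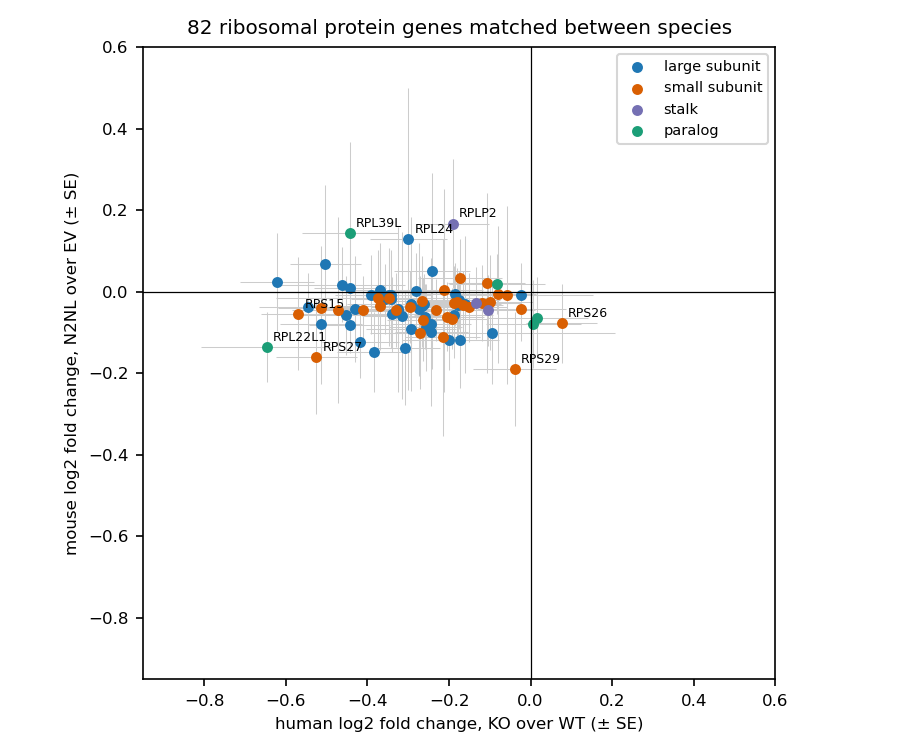
The mouse log2 fold change (N2NL over EV) is drawn against the human one (KO over WT) for 82 matched ribosomal protein genes, with SE on both axes and equal scales. The points spread from -0.65 to 0.08 along the human axis and from -0.19 to 0.17 along the mouse axis.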

How the data were processed

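Per the labels' protocols, polyadenylated RNA was made into strand-specific Ion libraries from 12 pools of organoids. The authors deposited raw counts per Ensembl gene, which were tested as they stand. The authors' deposited DESeq2 tables give normalized counts rounded to whole numbers (treated as a score), p-values and, in the human table, log2 fold changes, per the file headers and values, from which only calls and adjusted p-values named as theirs are given. Among tools in the submitters' processing notes are STAR 2.4.0 as well as HTSeq 0.6.1p1, with the builds GRCh38 and GRCm38. How strand entered the counting is not stated in these sources. Members with near-identical copies or overlapping genes are therefore uncertain, and 1015 human pseudogenes are named after members. Every column of values was assigned to a sample. Replicate numbers are those of the raw count columns, since normalized columns 1 and 3 of the human table are exchanged within each group.

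Each species was fitted apart in edgeR 4.0.16 (R 4.3.3): filterByExpr, TMM factors and the robust quasi-likelihood F test with group as the 1 term, called at a Benjamini-Hochberg adjusted p under 0.05. The SE of a fold is its size divided by the square root of F. Ratios within a library used counts plus 0.5 and an exact permutation test in SciPy. Depth limits the members with few counts. The members and lists were chosen with earlier results of these data known, so their medians and counts carry no test. Named genes are the 10 called human members with the largest folds, the 3 largest mouse folds, members against the common direction, paralogs with their parents, stalk genes, the 3 highest and 3 lowest by length, RPS6 and RPSA. Some genes this rule names are not reported here. Alternatives were other scalings, filters, DESeq2 1.42.0, pseudogene counts added, length trends removed, a replicate block and each library left out. The fit was tested on simulated data.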

Additional observations from a re-analysis of the deposited data

How the results depend on the processing

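With 3 libraries a group, the number of members called in human organoids is limited by single libraries: leaving out 1 library gave 1 to 19 members lower (20 with all) and 224 to 1440 genes called (932 with all). Without the filter on low counts 39 members and 2155 genes were called. The median log2 fold change of the human members stayed between -0.31 and -0.20 over all alternatives, and 0 members were higher in any. Deviations of same-numbered libraries correlated at 0.21, -0.10 and 0.12 in human and 0.13, 0.01 and -0.0041 in mouse. Human libraries with different numbers correlated from -0.315 to 0.263, so these values cannot decide whether the replicate numbers pair the libraries. With the replicate block, 12 human members and 21 mouse genes were called, and 11 of the 12 were among the 20. In mouse, 0 members were called in any fit, while all genes called numbered 2, with 0 to 17 when 1 library was left out, 30 by DESeq2, 117 without a filter, and 1 both with a mean of at least 50 counts and in the non-robust fit. The call of RPL22L1 was lost in 5 alternatives that kept all libraries (adjusted p = 0.0521 to 0.0563), that of RPL3 in 4 (0.0525 to 0.0885), that of RPS19 in 3 (0.0523 to 0.0689), and those of RPL8 and RPL35 with the block (0.0680 and 0.0580).

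The directions that turned belonged to folds and ratios that were not called. In human, RPL26 was 0.0038 with library size alone and 0.020 with the transcript length offset, which was chosen after seeing the data, RPL26L1 was 0.042 with the exonic length offset, 0.013 with library size alone and 0.012 with the transcript length offset, and RPS27L was -0.00082 with the exonic length offset. In mouse, RPL7 was -0.00092 with RLE factors, -0.0079 with library size alone and -0.00012 with the block, and RPL3 was -0.0059 and -0.0020 with these last 2. When 1 library was left out, the human folds ran from -0.34 to 0.19 for RPL17, -0.20 to 0.16 for RPL26, -0.062 to 0.046 for RPL26L1, -0.092 to 0.083 for RPL36AL, -0.17 to 0.073 for RPL7L1 and -0.084 to 0.14 for RPS27L. The differences in log2 ratio, KO minus WT, ran from -0.18 to 0.24 for RPL26L1 to RPL26 and from -0.10 to 0.27 for RPL39L to RPL39. Mouse folds ran from -0.058 to 0.033 for RPL22, -0.053 to 0.040 for RPL26, -0.13 to 0.10 for RPL3, -0.081 to 0.081 for RPL39, -0.017 to 0.43 for RPL39L, -0.088 to 0.051 for RPL7, -0.062 to 0.061 for RPL7L1, -0.083 to 0.044 for RPLP0, -0.13 to 0.028 for RPLP1, -0.16 to 0.050 for RPS27L, -0.089 to 0.097 for RPS6, -0.13 to 0.15 for RPSA and -0.063 to 0.31 for ribosomal protein L10-like. Mouse differences in log2 ratio, N2NL minus EV, ran from -0.0998 to 0.49 for RPL39L to RPL39, -0.035 to 0.087 for RPL7L1 to RPL7 and -0.086 to 0.33 for RPS27L to RPS27. The mouse difference in the share of counts in members, -0.19 percentage points with all libraries, ran from -0.57 to 0.13 and turned without N2NL 3. The cause was not tested.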

Other observations

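A few genes of the translation machinery had counts far under those of their relatives. Mouse RPL24 had 10, 18 and 13 counts in N2NL libraries and 15, 14 and 13 in EV libraries. Human EEF1G, a subunit of elongation factor 1, had 0 counts in all 6 libraries. Nothing in these sources says how the counting treated strand or reads that overlapping genes share, so these counts may not reflect the level of either mRNA.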
